A study of Mus musculus with 38 samples.

Results

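Myofibroblasts are the contractile, matrix-producing cells of a scarring kidney, and 9 genes that mark them, their precursors and the transforming growth factor-beta (TGF-beta) pathway were followed through 3 mouse experiments on the phosphate-regulating hormone fibroblast growth factor 23 (FGF23). The genes were taken by symbol from the table of raw counts, which holds 55487 genes: Acta2, Tagln, Pdgfra, Pdgfrb, Fn1, Postn, Fbn1, Vim and Tgfb1. All 9 were in the table, and all 9 passed the filter on low counts in each experiment. Bulk RNA-Seq libraries numbered 38 in 10 groups. In the first experiment, kidney tissue came from male C57BL/6JRj mice, either healthy or with anti-glomerular basement membrane (anti-GBM) disease. This immune glomerulonephritis was induced with a serum against the glomerular basement membrane, after immunization with sheep IgG in Freund's complete adjuvant. By the study's text, control mice were given PBS, and RNA of the mouse experiments came from a fragment of each kidney's pars intermedia. Vehicle was given for 6 days to 4 healthy mice and 4 anti-GBM mice, and FGF23 for 6 days to 3 healthy mice and 3 anti-GBM mice. These group sizes are those of the labels and differ from the study's text, and columns of the mouse experiments were tied to groups through the headers of a supplementary table, since their names carry no group. The name of 1 column, placed among the anti-GBM mice given FGF23 as mouse 14, is spelled differently in that table's labels. In the second experiment, kidneys came from female BALB/c mice, healthy or with Adriamycin nephropathy, in which the drug doxorubicin injures the podocytes of the glomerular filter. Vehicle or FGF23 was labelled as a 24 h treatment there, with 4 mice in each of the 4 groups. In the third experiment, precision-cut kidney slices (PCKS) from male DBA/2J mice with adenine nephropathy, a toxic tubulointerstitial disease, were cultured with vehicle or FGF23 in 4 cultures each. The slice treatment is labelled as 1 h, whereas the study's text gives a longer culture with FGF23. No group of the slices was free of disease, the study's text calls the replicates within a group independent, and whether vehicle and FGF23 cultures shared a mouse is given in neither the labels nor that text. The hormone was the human recombinant protein in all 3 experiments, no genetic alteration was carried by any group, and the labels give no ages.

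Kidney myofibroblasts arise mainly from resident fibroblasts and pericytes, which carry the receptors for platelet-derived growth factor (PDGF) encoded by Pdgfra and Pdgfrb. When TGF-beta is released from its latent complex, it signals through its receptors and Smad proteins and turns on genes for contraction and for matrix. Acta2 encodes smooth muscle alpha-actin and Tagln encodes transgelin, an actin-binding protein of smooth muscle, and both are also expressed by the smooth muscle of vessel walls. Fn1 encodes fibronectin, Postn the matricellular protein periostin and Fbn1 the microfibril protein fibrillin-1, which also anchors latent TGF-beta. Vim encodes vimentin, the intermediate filament of mesenchymal cells, leukocytes and injured tubular cells, and Tgfb1 the ligand TGF-beta 1, made by many cell types, macrophages among them.

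Total counts per library ran from 13704248 to 23630210 in the anti-GBM experiment, from 15665050 to 27583911 in the Adriamycin experiment and from 11186925 to 16254987 in the slices. Counts ran from 17 reads for the lowest Postn value to 19407 reads for the highest Fn1 value. Postn came nearest to the minimum count of 10 used in the filter. Expression is given as CPM, which is the count scaled to the library's total with TMM factors within an experiment. For tests, edgeR's quasi-likelihood method was run over all expressed genes of an experiment, and a gene was called at an adjusted p below 0.05. Differences are log2 fold changes with their standard error (SE). Exons of Tagln, Pdgfra, Fn1 and Fbn1 overlap exons of other genes (Pcsk7 for Tagln), and Acta2 has close relatives among the actin genes, so that their counts depend on strand and multiple-mapping settings that are not given in the sources used here. In bulk tissue, more cells of a type and more RNA of a gene per cell cannot be told apart. The labelled tissue was borne out by its markers in the mouse experiments, where the summed level of 6 proximal tubule genes ran from 6163 to 14315 CPM. In the slices the same sum was 265 to 653 CPM, and that of 4 injured tubule genes (Havcr1, Lcn2, Krt20 and Vcam1) was 1392 to 2482 CPM.

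The sequence in front of the start site is shown for Acta2, the contractile gene with motifs of a muscle transcription factor, and for Postn and Tgfb1, a TATA-type and a GC-rich start. RefSeq windows of GRCm38.p6 were at hand for 6 of the 9 genes, and the 150 bases before each start were searched. Tagln, Fn1 and Pdgfrb had no window. A CArG box, the motif bound by serum response factor in muscle genes, was counted where CC and GG enclosed 6 bases of which at most 1 was neither A nor T. Acta2 (ENSMUSG00000035783, GRCm38 chromosome 19 from 34241090 to 34255590, minus strand) held 2 such boxes, which begin 84 and 34 bases before its RefSeq start. They are printed in capitals with 10 flanking bases on each side, from chr19:34255438-34255467 and chr19:34255388-34255417 on the minus strand, which lies inside the annotated span of the gene.
Acta2 upstream box: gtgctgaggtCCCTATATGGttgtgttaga
Acta2 downstream box: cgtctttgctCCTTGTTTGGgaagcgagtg
Of all 32851 windows of this length, 5.10% held at least 1 such box and 0.289% held at least 2, and none of the other 5 member genes with a window held any.

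For Postn, which has 2 RefSeq starts, the window at the start of its annotated gene (chr3:54360957-54361106, plus strand) held the TATA motif TATAAA, in capitals, as did 7.57% of all windows on either strand. The Vim window held 1 TATAAA as well.
Postn: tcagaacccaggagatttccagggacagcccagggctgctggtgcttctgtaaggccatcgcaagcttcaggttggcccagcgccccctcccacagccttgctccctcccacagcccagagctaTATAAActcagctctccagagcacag
The Tgfb1 window (chr7:25686852-25687001, plus strand) held no TATAAA and 4 copies of the GC box GGGCGG on either strand, in capitals. At least 1 GC box was found in 28.6% of all windows, and at least 2 in 12.8%.
Tgfb1: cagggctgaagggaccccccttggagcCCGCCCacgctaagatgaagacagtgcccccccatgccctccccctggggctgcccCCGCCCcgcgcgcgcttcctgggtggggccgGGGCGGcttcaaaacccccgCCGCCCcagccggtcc
These matches are descriptions of the letters, and binding of any factor was not measured.

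Per kilobase of annotated exon, the contractile genes were the most abundant of the 9 in healthy C57BL/6JRj kidneys given vehicle. Acta2 stood at 13.4 ± 1.36 (SD, n = 4) and Tagln at 13 ± 1.52 (SD, n = 4) CPM per kilobase, which differ by less than their SD. Pdgfrb followed at 11 ± 1.04 (SD, n = 4) CPM per kilobase, and Vim at 8.31 ± 0.955 (SD, n = 4). Fn1, Tgfb1 and Pdgfra had mean levels of 4.68, 4.12 and 3.83 CPM per kilobase. Fbn1 was at 1.36 ± 0.167 (SD, n = 4) and Postn, the lowest, at 0.450 ± 0.494 (SD, n = 4) CPM per kilobase. In the slices given vehicle the order differed, with Vim at 185 ± 9.61 (SD, n = 4) and Fn1 at 109 ± 10.7 (SD, n = 4) CPM per kilobase above all others, and Postn was again the lowest at 1.39 ± 0.513 (SD, n = 4). Both sets came from male mice, but strain, disease and culture all differ between the slices and these kidneys. Their shares in this difference cannot be told apart.

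Anti-GBM disease was compared with health first in mice given vehicle, to see how far the fibrosis genes differ with the disease model. As the study's text gives only PBS for control mice, adjuvant immunization and nephritis cannot be told apart here. All 9 genes were higher in anti-GBM kidneys than in healthy kidneys, with log2 fold changes from 0.52 for Pdgfrb to 1.95 for Vim and a median of 1.37 over the genes. All 9 were called, where 19.4% of the 15859 genes tested were called higher and the median log2 fold change of all genes was -0.01. For 8 of the 9 genes the anti-GBM and healthy mice did not overlap, against 17% of all genes that were higher without overlap, and Postn was the exception.

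The contractile genes rose about 3-fold. Acta2 was at 26.9, 30.2, 33.4 and 27.6 CPM in the 4 healthy mice and at 76.5, 67, 102 and 103 CPM in the 4 anti-GBM mice. The lowest anti-GBM mouse stood above the highest healthy mouse by a wide margin. The means of 29.5 ± 2.98 CPM (SD, n = 4) and 87.3 ± 18.3 CPM (SD, n = 4) differ by a log2 fold change of 1.56 (SE 0.13, adjusted p = 2.38e-06 by edgeR). Tagln (ENSMUSG00000032085, chromosome 9 from 45929619 to 45936058, minus strand) was at 25.8, 25.7, 29.5 and 22.1 CPM in healthy mice and at 81.5, 74.1, 91.9 and 89.3 CPM in anti-GBM mice. The groups were again far apart, and the anti-GBM mice were close to each other. The means of 25.7 ± 3.02 CPM (SD, n = 4) and 84.2 ± 8.06 CPM (SD, n = 4) differ by a log2 fold change of 1.71 (SE 0.09, adjusted p = 3.20e-07 by edgeR).

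The PDGF receptors rose less. Pdgfra (ENSMUSG00000029231, chromosome 5 from 75152292 to 75198215, plus strand), which marks fibroblasts, was at 41.9, 38.5, 43.7 and 29.6 CPM in healthy mice and at 62.8, 66.8, 56.5 and 57.1 CPM in anti-GBM mice. The means of 38.4 ± 6.29 CPM (SD, n = 4) and 60.8 ± 4.91 CPM (SD, n = 4) differ by a log2 fold change of 0.66 (SE 0.20, adjusted p = 0.0158 by edgeR). Pdgfrb (ENSMUSG00000024620, chromosome 18 from 61045150 to 61085061, plus strand), which marks pericytes and fibroblasts, was at 62.5, 54.5, 67.3 and 57.2 CPM in healthy mice and at 73.8, 82.8, 96.7 and 93.7 CPM in anti-GBM mice. Neither receptor gene overlapped between the groups, and for Pdgfrb the nearest mice, at 67.3 and 73.8 CPM, were close. The means of 60.4 ± 5.72 CPM (SD, n = 4) and 86.7 ± 10.5 CPM (SD, n = 4) differ by a log2 fold change of 0.52 (SE 0.10, adjusted p = 0.00113 by edgeR).

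Among the matrix genes, Fn1 (ENSMUSG00000026193, chromosome 1 from 71585520 to 71653200, minus strand) rose most, from 58.2, 53.6, 50.1 and 56.7 CPM in healthy mice to 176, 222, 265 and 160 CPM in anti-GBM mice. The healthy mice lay within a few CPM of each other and the anti-GBM mice spread widely above them. The means of 54.7 ± 3.60 CPM (SD, n = 4) and 206 ± 47.4 CPM (SD, n = 4) differ by a log2 fold change of 1.91 (SE 0.14, adjusted p = 1.60e-06 by edgeR). Fbn1 (ENSMUSG00000027204, chromosome 2 from 125300594 to 125507993, minus strand) was at 14.7, 16, 19.4 and 16.2 CPM in healthy mice and at 34.5, 39.6, 42.6 and 26.9 CPM in anti-GBM mice, with no overlap. The means of 16.6 ± 2.03 CPM (SD, n = 4) and 35.9 ± 6.90 CPM (SD, n = 4) differ by a log2 fold change of 1.12 (SE 0.17, adjusted p = 0.000266 by edgeR). Postn (ENSMUSG00000027750, chromosome 3 from 54361109 to 54391037, plus strand) was the lowest of the 9 genes, at 2.38, 1.57, 10.3 and 1.39 CPM in healthy mice and 14.5, 7.14, 10.2 and 9.14 CPM in anti-GBM mice. Healthy mouse 3 stood among the anti-GBM mice, and the other 3 healthy mice lay below all of them. The means of 3.92 ± 4.30 CPM (SD, n = 4) and 10.2 ± 3.09 CPM (SD, n = 4) differ by a log2 fold change of 1.37 (SE 0.48, adjusted p = 0.0358 by edgeR). Without healthy mouse 3 the log2 fold change of Postn was 2.56, and without healthy mouse 1, 2 or 4 or anti-GBM mouse 5 or 7 the call was lost, with adjusted p values from 0.0562 to 0.0899.

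Vim (ENSMUSG00000026728, chromosome 2 from 13573927 to 13582826, plus strand) had the largest log2 fold change of the 9 genes in this comparison. It was at 36.7, 36.5, 46.1 and 38.4 CPM in healthy mice and at 109, 149, 184 and 167 CPM in anti-GBM mice, and every anti-GBM mouse was far above every healthy mouse. The means of 39.4 ± 4.53 CPM (SD, n = 4) and 152 ± 32.3 CPM (SD, n = 4) differ by a log2 fold change of 1.95 (SE 0.16, adjusted p = 2.52e-06 by edgeR). Tgfb1 (ENSMUSG00000002603, chromosome 7 from 25687002 to 25705077, plus strand) was at 20.8, 20.9, 21.8 and 19.5 CPM in healthy mice and at 35.2, 39.2, 42.6 and 42.5 CPM in anti-GBM mice. The spread within each group was small beside the gap between them. The means of 20.8 ± 0.931 CPM (SD, n = 4) and 39.9 ± 3.52 CPM (SD, n = 4) differ by a log2 fold change of 0.94 (SE 0.08, adjusted p = 4.03e-06 by edgeR).

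**Figure D1:**
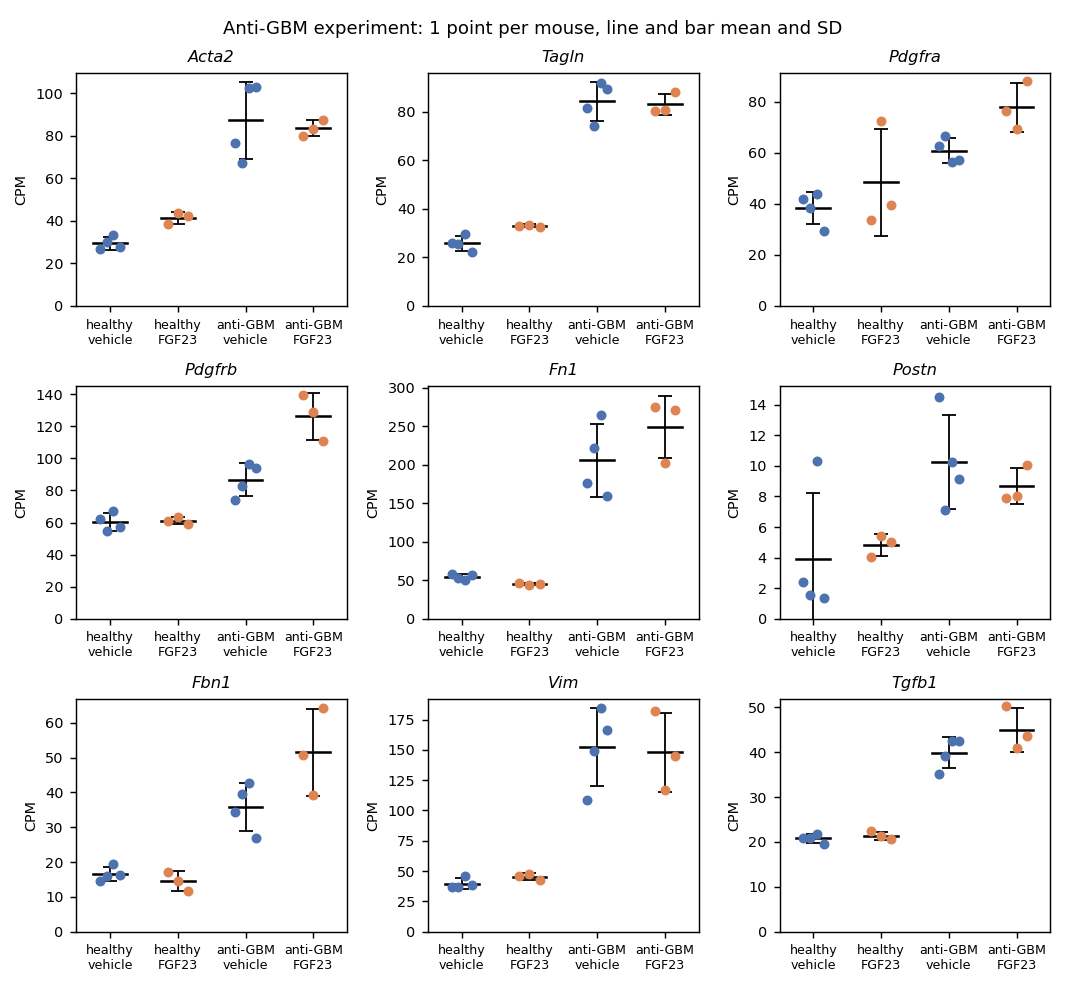
CPM of the 9 genes in each mouse of the anti-GBM experiment, with 1 panel per gene and a y axis from 0; points are mice (blue vehicle, orange FGF23), horizontal lines are group means and bars are SD. The anti-GBM groups lie above the healthy groups for all genes except Postn, where healthy mouse 3 at 10.3 CPM lies among the anti-GBM mice, and Pdgfra, where healthy mouse 10 at 72.5 CPM does.

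Markers of other cells moved with these genes in the same mice. The summed level of 8 macrophage genes was 385 to 421 CPM in healthy and 915 to 1790 CPM in anti-GBM mice given vehicle, and 7 of the 8 were called higher. The sum of 4 injured tubule genes was 15.7 to 19.5 CPM in healthy and 350 to 724 CPM in anti-GBM mice, and all 4 were called higher, while 4 of 6 proximal tubule genes were called lower. Of the 4 vascular smooth muscle markers tested, 2 were called higher, and their summed level of 38.4 to 81.9 CPM in anti-GBM mice overlapped the 49.7 to 58.3 CPM of healthy mice. All 4 pan-leukocyte genes and 1 of 3 collecting duct genes were called higher, 1 of 6 endothelial genes lower and 0 of 5 podocyte genes either way. In anti-GBM mice 5, 6, 7 and 8 the vascular smooth muscle sum was 38.4, 52.6, 59.5 and 81.9 CPM. Mouse 5, with the lowest sum, had Acta2 and Tagln levels of 76.5 and 81.5 CPM. Mouse 6 was the lowest of these mice in both genes, at 67 and 74.1 CPM. Acta2 was highest in mouse 8, at 103 CPM, and Tagln in mouse 7, at 91.9 CPM. The part of these cell types in the rise of the 9 genes was not tested.

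The same comparison among mice given FGF23 asks whether the disease response is also seen under the hormone. Again anti-GBM mice had the higher level of all 9 genes, the middle log2 fold change being 1.07, and 8 of the 9 were called, where 14.5% of all genes were called higher. For 8 of the 9 genes the groups did not overlap, against 22.5% of all genes in this smaller comparison. Fn1 rose from 46.9, 44 and 45.1 CPM in the 3 healthy mice to 275, 202 and 271 CPM in the 3 anti-GBM mice. The means of 45.3 ± 1.51 CPM (SD, n = 3) and 249 ± 40.7 CPM (SD, n = 3) differ by a log2 fold change of 2.46 (SE 0.17, adjusted p = 2.08e-06 by edgeR). Fbn1 rose from 17.3, 14.6 and 11.6 CPM to 50.8, 39.4 and 64.2 CPM. The 3 anti-GBM mice differed widely from each other, but the lowest was far above the highest healthy mouse. The means of 14.5 ± 2.82 CPM (SD, n = 3) and 51.5 ± 12.4 CPM (SD, n = 3) differ by a log2 fold change of 1.82 (SE 0.20, adjusted p = 3.11e-05 by edgeR). Pdgfrb was at 60.8, 63.7 and 59.2 CPM in healthy mice and at 139, 129 and 111 CPM in anti-GBM mice, without overlap. The means of 61.2 ± 2.25 CPM (SD, n = 3) and 126 ± 14.5 CPM (SD, n = 3) differ by a log2 fold change of 1.04 (SE 0.12, adjusted p = 3.17e-05 by edgeR).

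Vim was at 45.8, 47.9 and 42.2 CPM in healthy and 182, 117 and 145 CPM in anti-GBM mice given FGF23, and Tgfb1 at 22.3, 21.2 and 20.6 CPM and 50.3, 40.9 and 43.6 CPM. Their log2 fold changes were 1.71 and 1.07, and both were called (edgeR, adjusted p = 2.57e-05 and 7.03e-06). The contractile genes also rose. Acta2 was at 38.4, 43.7 and 42.4 CPM in healthy and 80.1, 83.2 and 87.6 CPM in anti-GBM mice, a log2 fold change of 1.01 (edgeR, adjusted p = 0.000232). Tagln was at 33.1, 33.5 and 32.5 CPM and 80.2, 80.5 and 88.1 CPM, a log2 fold change of 1.33 (edgeR, adjusted p = 3.17e-06). In both genes the healthy and anti-GBM mice were clearly apart.

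Pdgfra and Postn were less certain. Pdgfra was at 33.5, 72.5 and 39.4 CPM in healthy and 76.5, 69.2 and 88.2 CPM in anti-GBM mice given FGF23. Healthy mouse 10 lay between the anti-GBM mice. The means of 48.5 ± 21 CPM (SD, n = 3) and 78 ± 9.59 CPM (SD, n = 3) differ by a log2 fold change of 0.68 (SE 0.22, adjusted p = 0.0359 by edgeR). The log2 fold change was 1.10 without healthy mouse 10, and the call was lost without healthy mouse 9 or 11 or anti-GBM mouse 13 or 16, with adjusted p values from 0.0766 to 0.133. It was also lost when the 5 comparisons were adjusted together and in a fit of the FGF23 groups alone, with adjusted p values of 0.0689 and 0.0808. In mouse 10 the summed level of 3 collecting duct markers was 572 CPM, against 248 to 324 CPM in the other healthy mice, and its part in the Pdgfra level was not tested. Postn was at 4.04, 5.39 and 5.02 CPM in healthy and 7.93, 8.06 and 10.1 CPM in anti-GBM mice. Although the groups did not overlap, the log2 fold change of 0.85 (SE 0.55) was not called (edgeR, adjusted p = 0.275) in the fit of all 4 groups. It was called in a fit without healthy mouse 3, a vehicle-treated mouse outside this comparison, and in a fit of the FGF23 groups alone, with adjusted p values of 0.0203 and 0.00761 in edgeR's test, and over the other alternatives to the whole comparison the adjusted p reached 0.409.

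FGF23 was then compared with vehicle among the anti-GBM mice, 1 of several settings in which the study looked for harmful effects of the hormone. None of the 9 genes was called by edgeR, where 0.240% of all genes were called, and 2 of the 9 had an unadjusted p below 0.05, against 12.6% of all genes. DESeq2 called 1 of the 9, Pdgfrb, and 161 of all genes, against 38 by edgeR. Alternative edgeR fits with RLE scaling, other filters on low counts or a robust fit also called Pdgfrb. Adjusting the 5 comparisons together did so too, but this pools in the disease comparisons, whose many calls ease the limit. Pdgfrb was at 73.8, 82.8, 96.7 and 93.7 CPM in the 4 mice given vehicle and at 139, 129 and 111 CPM in the 3 mice given FGF23. All 3 mice given FGF23 were above all 4 given vehicle, as was the case for 5.11% of all genes. The log2 fold change was 0.54 (SE 0.11, adjusted p = 0.055 by edgeR), and over the other settings of the whole comparison the adjusted p ran from 0.000669 with DESeq2 to 0.338 with only the 7 anti-GBM libraries in the fit. Leaving out mouse 7, given vehicle, or mouse 16, given FGF23, also gave a call (adjusted p = 0.0367 and 0.0306 in edgeR's test), and leaving out mouse 13 raised the adjusted p to 0.353.

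Pdgfra also did not overlap between the anti-GBM groups, at 62.8, 66.8, 56.5 and 57.1 CPM with vehicle and 76.5, 69.2 and 88.2 CPM with FGF23. Its log2 fold change was 0.36 (SE 0.21, adjusted p = 0.469 by edgeR). Fbn1 was at 34.5, 39.6, 42.6 and 26.9 CPM with vehicle and 50.8, 39.4 and 64.2 CPM with FGF23, and mouse 14 lay among the mice given vehicle. Its log2 fold change was 0.52 (SE 0.18, adjusted p = 0.328 by edgeR). The groups overlapped for the other 6 genes. The log2 fold changes of Fn1 and Tgfb1 were 0.28 (SE 0.15) and 0.17 (SE 0.09). Those of Acta2, Tagln and Vim were -0.06, -0.02 and -0.04, each smaller than its standard error, and that of Postn was -0.24 (SE 0.50). The sum of 4 pan-leukocyte genes was 143 to 161 CPM with FGF23 and 79.8 to 138 CPM with vehicle in these mice, without overlap, although 0 of the 4 were called. The macrophage sum was 1603 to 1809 CPM and 915 to 1790 CPM, which overlap. The part of leukocytes in the values above was not tested.

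In healthy C57BL/6JRj mice FGF23 gave 0 calls among the 9 genes and 0% among all genes in edgeR's test, with 689 genes at an unadjusted p below 0.05. DESeq2 called 0 of the 9 as well. Of the 9 genes, 2 had an unadjusted p below 0.05, where 4.34% of all genes did, and these were the contractile pair. Acta2 was at 26.9, 30.2, 33.4 and 27.6 CPM in the 4 mice given vehicle and 38.4, 43.7 and 42.4 CPM in the 3 mice given FGF23. Tagln was at 25.8, 25.7, 29.5 and 22.1 CPM with vehicle and 33.1, 33.5 and 32.5 CPM with FGF23. In both genes every mouse given FGF23 was above every mouse given vehicle, which held for 2.30% of all genes. The log2 fold changes were 0.49 for Acta2 (SE 0.14) and 0.36 for Tagln (SE 0.10), with an adjusted p of 0.996 for each in edgeR's test. When the p values of the 5 comparisons of this experiment were adjusted together, those of Acta2 and Tagln were 0.0317 and 0.0275, and no other setting gave a call. That adjustment pools them with the disease comparisons, whose many calls ease the limit here by construction. It is no added evidence for an effect of FGF23 in healthy mice. The vascular smooth muscle sum was 49.7 to 58.3 CPM with vehicle and 51.4 to 68.7 CPM with FGF23, and its part in these values was not tested.

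Fn1 was at 58.2, 53.6, 50.1 and 56.7 CPM with vehicle and 46.9, 44 and 45.1 CPM with FGF23 in healthy mice. The groups did not overlap, as for 5.01% of all genes that were lower without overlap, but the log2 fold change of -0.27 (SE 0.15) was not called. The other 6 genes overlapped, with log2 fold changes from -0.19 for Fbn1 to 0.34 for Pdgfra.

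An interaction term compared what FGF23 did in diseased mice with what it did in healthy mice. None of the 9 genes was called, where 0.0315% of all genes were called by edgeR, and DESeq2 also called 0 of the 9. An unadjusted p below 0.05 was reached by 5 of the 9 genes, where 8.30% of all genes reached it. Their terms, the log2 fold change in anti-GBM minus that in healthy mice, had both signs. The contractile genes had negative terms of -0.55 (SE 0.19) for Acta2 and -0.38 (SE 0.13) for Tagln. The terms were positive for Pdgfrb at 0.52 (SE 0.15), Fn1 at 0.55 (SE 0.21) and Fbn1 at 0.70 (SE 0.26). The smallest adjusted p of the 9 was 0.397, for Pdgfrb in edgeR's test. Adjustment over the 5 comparisons together, which pools in the many calls of the disease comparisons, brought it to 0.0401.

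**Figure D2:**
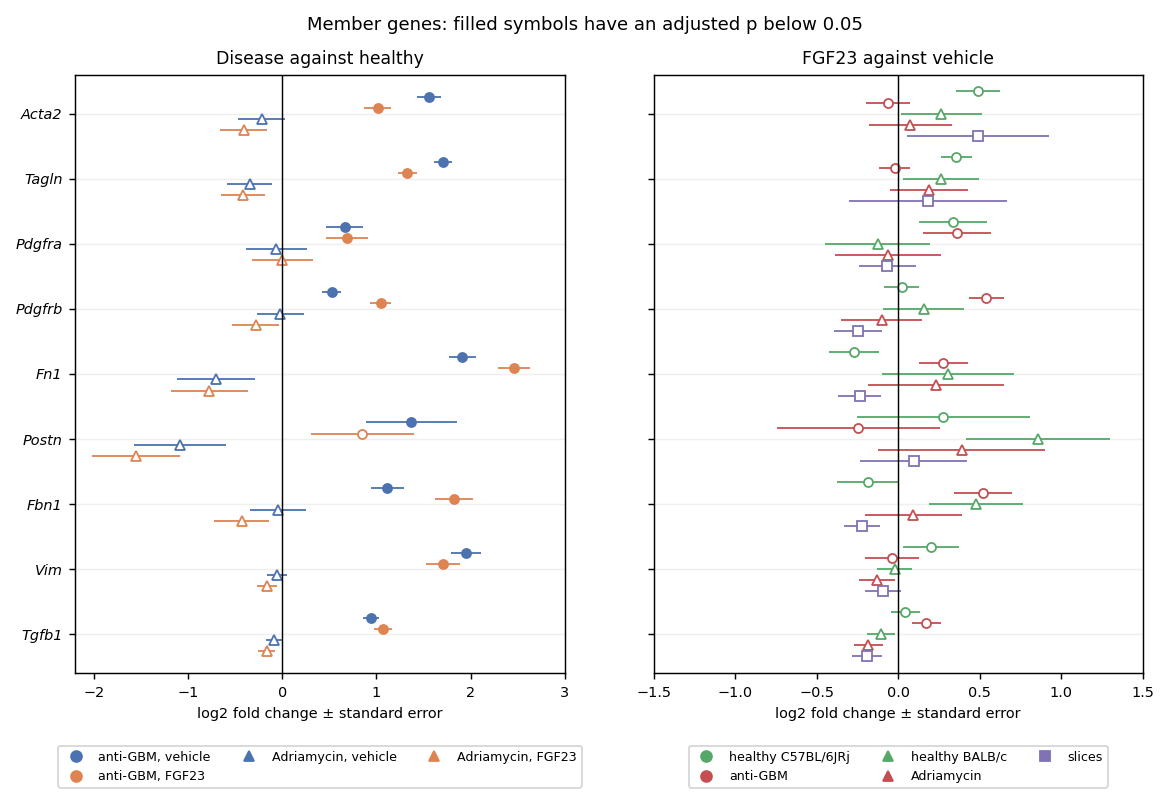
Log2 fold changes of the 9 genes with their standard errors, for disease against healthy (left) and FGF23 against vehicle (right); circles are the anti-GBM experiment, triangles the Adriamycin experiment and squares the slices, and filled symbols have an adjusted p below 0.05. Filled symbols occur on the left among the anti-GBM circles, where all are filled except Postn with FGF23 at 0.85, and all symbols on the right are open.

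In Adriamycin nephropathy the 9 genes did not show the rise seen in anti-GBM disease, and since the experiments were fitted apart, the difference between them was not tested. Among mice given vehicle all 9 log2 fold changes against healthy mice were below 0, from -1.09 for Postn to -0.02 for Pdgfrb with a median of -0.09, and 0 of the 9 were called, where 0.331% of the 16020 genes tested were called. DESeq2 also called 0 of the 9. At an unadjusted p below 0.05 there was 1 member, Postn, against 8.27% of all genes. Outside the 9 genes, Cdkn1a, a cell cycle inhibitor induced by DNA damage and by TGF-beta, averaged 5.28 ± 0.776 CPM (SD, n = 4) in healthy mice and rose to 12.3 ± 0.178 CPM (SD, n = 4). This is a log2 fold change of 1.21 (edgeR, adjusted p = 0.00165). The summed podocyte markers, at 595 to 660 CPM in healthy and 617 to 738 CPM in Adriamycin mice given vehicle, overlapped. The injured tubule sum was 98.3 to 184 CPM in those healthy and 51.3 to 110 CPM in those Adriamycin mice, and no gene of any marker list was called.

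Postn was at 3.84, 2.64, 3.72 and 3.17 CPM in the 4 healthy mice and at 1.45, 2.30, 1.46 and 1.01 CPM in the 4 Adriamycin mice given vehicle. All 4 Adriamycin mice were below all 4 healthy mice, which held for 2.84% of all genes. The log2 fold change was -1.09 (SE 0.49, adjusted p = 0.569 by edgeR). Among mice given FGF23, Postn was at 13.3, 5.98, 2.37 and 2.59 CPM in healthy and 1.4, 2.59, 1.19 and 3.15 CPM in Adriamycin mice. Healthy mouse 25 stood well above the others, and the lower healthy mice overlapped with the Adriamycin mice. The log2 fold change was -1.56 (SE 0.47, adjusted p = 0.173 by edgeR), and DESeq2 called it with an adjusted p of 0.0382, whereas over the other whole-table settings the adjusted p reached 0.419. Without healthy mouse 25 the log2 fold change was -0.83. The smallest Postn count in these 16 libraries was 17 reads, the shallowest value of the 9 genes.

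Fn1 varied widely between mice of the same group. It was at 44.2, 69.3, 85.3 and 53.6 CPM in healthy mice and 26.1, 60.3, 36.8 and 31.4 CPM in Adriamycin mice given vehicle. With FGF23 it was at 137, 58.9, 81.2 and 34.8 CPM in healthy mice and 16.1, 47.8, 50.2 and 68.5 CPM in Adriamycin mice. Single mice of the same group differed several-fold, and all groups overlapped. The log2 fold changes were -0.70 (SE 0.41) with vehicle and -0.77 (SE 0.41) with FGF23, and neither was called.

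The PDGF receptors showed a like spread between the BALB/c mice. Pdgfra was at 21.9, 43, 44.3 and 51.1 CPM in healthy mice and 27.3, 47, 49.8 and 28.6 CPM in Adriamycin mice given vehicle. With FGF23, it was at 48.4, 35.4, 45.3 and 17.7 CPM and 22.7, 38.6, 32.7 and 53.2 CPM. In each of the 4 groups the mouse with the lowest Pdgfra value, mouse 17, 21, 28 or 29, was also the lowest of its group in Pdgfrb and Fn1. Pdgfrb was at 37.6, 44.9, 64.7 and 59.3 CPM in healthy and 43.5, 57.3, 54.5 and 47.6 CPM in Adriamycin mice given vehicle, and at 72.7, 53.5, 68.1 and 35.9 CPM and 30.3, 46.4, 39.8 and 73.3 CPM with FGF23. All groups overlapped, and the log2 fold changes of disease were -0.06 and 0.00 for Pdgfra and -0.02 and -0.28 for Pdgfrb, with vehicle and with FGF23.

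The remaining genes were not called between healthy and Adriamycin mice with either treatment, and the levels given are those with vehicle. Vim was at 56.3, 55.4, 58.1 and 57.4 CPM in healthy and 51.5, 66.8, 54.5 and 45.6 CPM in Adriamycin mice given vehicle, a log2 fold change of -0.06 with an SE of 0.11. Tgfb1 was at 19.8, 18.2, 20.5 and 22.9 CPM and 18.1, 21.1, 19 and 18.5 CPM, a log2 fold change of -0.09 with an SE of 0.09. For these genes the groups overlapped and the standard errors were the smallest of the 9. Acta2 was at 25.6, 43.6, 29.7 and 29.6 CPM in healthy and 26.7, 32, 23.2 and 28.6 CPM in Adriamycin mice, and Tagln at 19.3, 28.7, 23.6 and 21 CPM and 16.4, 20.8, 16.3 and 19.1 CPM. Their log2 fold changes were -0.22 (SE 0.25) and -0.35 (SE 0.24). Fbn1 was at 9.12, 8.95, 12.7 and 11.3 CPM and 7.86, 13.6, 10.6 and 8.47 CPM, a log2 fold change of -0.05 (SE 0.29). Among mice given FGF23 edgeR called 0 of the 9 genes, where 0.699% of all genes were called. Postn alone had an unadjusted p below 0.05, against 12.7% of all genes. Of the 9 log2 fold changes, 8 were below 0, with a median of -0.41. Those of Acta2, Tagln and Fbn1 were -0.41 (SE 0.25), -0.42 (SE 0.23) and -0.43 (SE 0.29). Those of Vim and Tgfb1 were -0.17 (SE 0.11) and -0.17 (SE 0.09).

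**Figure D3:**
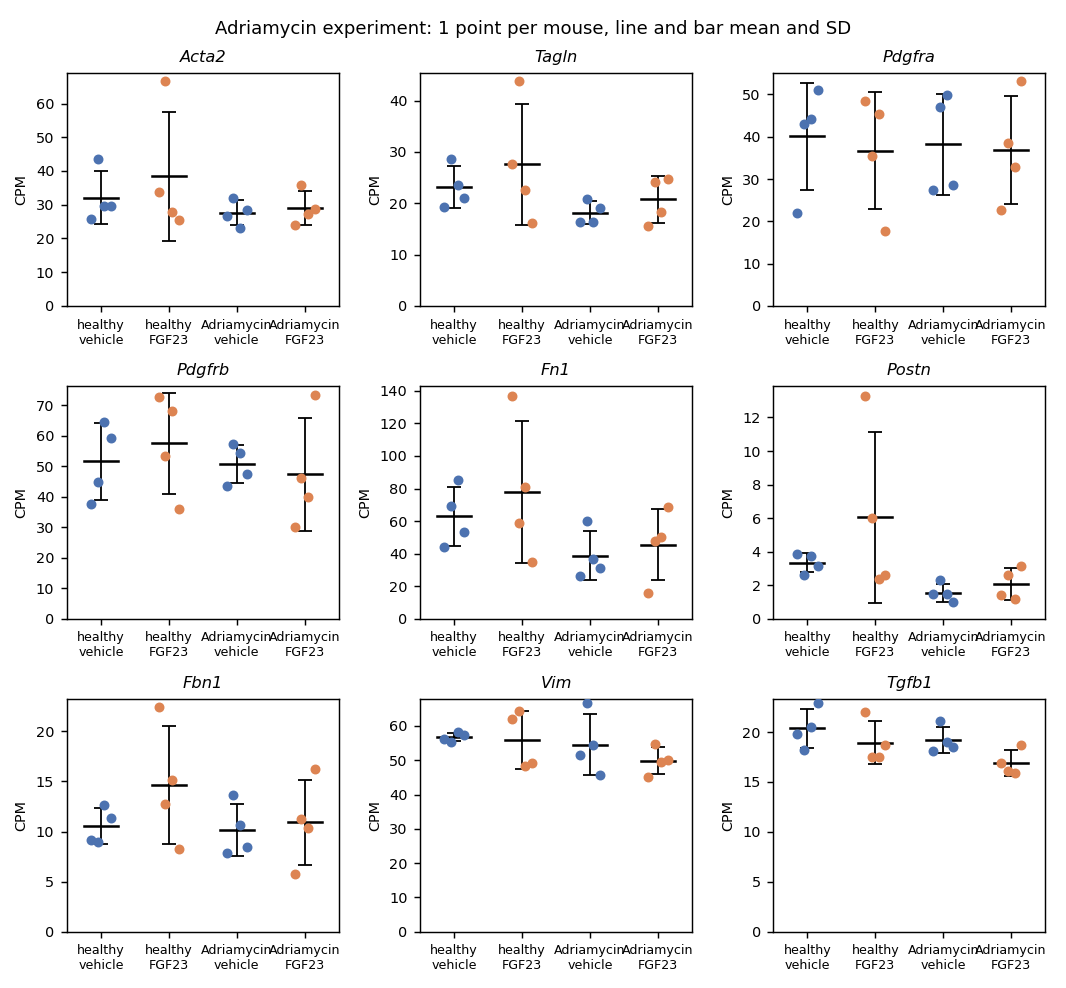
CPM of the 9 genes in each mouse of the Adriamycin experiment, with 1 panel per gene and a y axis from 0; points are mice (blue vehicle, orange FGF23), horizontal lines are group means and bars are SD. The groups overlap for every gene and pair of groups compared except Postn with vehicle, where the healthy mice at 2.64 to 3.84 CPM lie above the Adriamycin mice at 1.01 to 2.30 CPM.

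A single dose of FGF23 was compared with vehicle in both BALB/c settings. In Adriamycin mice edgeR and DESeq2 each called 0 of the 9 genes, where edgeR called 0.0375% of all genes, and none of the 9 had an unadjusted p below 0.05, against 5.69% of all genes. The log2 fold changes ran from -0.18 for Tgfb1 (SE 0.09) to 0.39 for Postn (SE 0.51). In healthy BALB/c mice edgeR called 0 of the 9 genes and 0% of all genes, with 1072 genes at an unadjusted p below 0.05, 6.69% of all, none of the 9 among them, and DESeq2 called 0 of the 9. The largest values were those of Postn at 0.86 (SE 0.44) and Fbn1 at 0.48 (SE 0.29). Without healthy mouse 25, which had 13.3 CPM of Postn and 137 CPM of Fn1, the highest of its group in both, the Postn value was 0.14. Acta2 was at 33.7, 66.6, 27.8 and 25.5 CPM in healthy BALB/c mice given FGF23, and mouse 26, the highest, was also the highest in Tagln, at 43.9 CPM, and in the vascular smooth muscle sum, at 93.9 CPM. The interaction of FGF23 with Adriamycin gave 0 calls among the 9 genes and 0% among all genes in edgeR's test, with 819 genes, or 5.11%, and none of the 9 at an unadjusted p below 0.05, and DESeq2 called 0 of the 9.

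In the slices of adenine nephropathy, FGF23 was compared with vehicle in tissue outside the animal. edgeR called 0 of the 9 genes and 0% of the 15090 genes tested, with 738 genes, or 4.89%, and none of the 9 at an unadjusted p below 0.05, and DESeq2 called 0 of the 9. The groups overlapped for all 9 genes, and 6 of the 9 log2 fold changes were below 0, with a median of -0.09.

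The contractile genes varied widely between slice cultures, with a coefficient of variation of 36% to 77.7% within a group. That of Postn was 36.8% with vehicle and 45.1% with FGF23, and that of Vim 5.18% to 14.1%. Acta2 was at 47.6, 26.2, 47.1 and 23.6 CPM in cultures 1 to 4 with vehicle and 109, 24, 36.6 and 33 CPM in cultures 1 to 4 with FGF23. Tagln was at 213, 45.7, 211 and 77.9 CPM with vehicle and 290, 107, 122 and 104 CPM with FGF23. Culture 1 with FGF23 was the highest for both genes, and for Tagln cultures 1 and 3 with vehicle also stood above cultures 2 and 4. The log2 fold changes were 0.49 for Acta2 (SE 0.44) and 0.18 for Tagln (SE 0.48), and both turned negative, to -0.21 and -0.30, without culture 1 with FGF23. That culture also had the highest collecting duct sum, 376 CPM against 12.7 to 66.5 CPM in the other 7, and the highest proximal tubule sum, 653 CPM against 265 to 449 CPM. The part of tissue composition in these values was not tested.

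The other genes differed little. Fn1 was at 1319, 1137, 1431 and 1231 CPM with vehicle and 900, 1224, 966 and 1252 CPM with FGF23, a log2 fold change of -0.24 (SE 0.13). Fbn1 was at 129, 132, 141 and 113 CPM and 114, 118, 87.9 and 122 CPM, a log2 fold change of -0.22 (SE 0.11). In both genes cultures 1 and 3 with FGF23 were the lowest of their group, and the groups overlapped. Tgfb1 was at 218, 205, 199 and 182 CPM with vehicle and 152, 182, 180 and 190 CPM with FGF23, a log2 fold change of -0.19 (SE 0.09). Vim was at 884, 814, 905 and 916 CPM and 716, 902, 734 and 944 CPM, a log2 fold change of -0.09 (SE 0.11). The receptors were at 177, 116, 155 and 113 CPM with vehicle and 96.9, 151, 132 and 155 CPM with FGF23 for Pdgfra, and at 162, 149, 166 and 117 CPM and 107, 146, 102 and 144 CPM for Pdgfrb. Their log2 fold changes, -0.07 and -0.25, lay within the spread of the cultures. Postn was at 17.2, 10.9, 13.8 and 6.65 CPM with vehicle and 21, 13.2, 7.79 and 9.71 CPM with FGF23, a log2 fold change of 0.09 (SE 0.33).

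**Figure D4:**
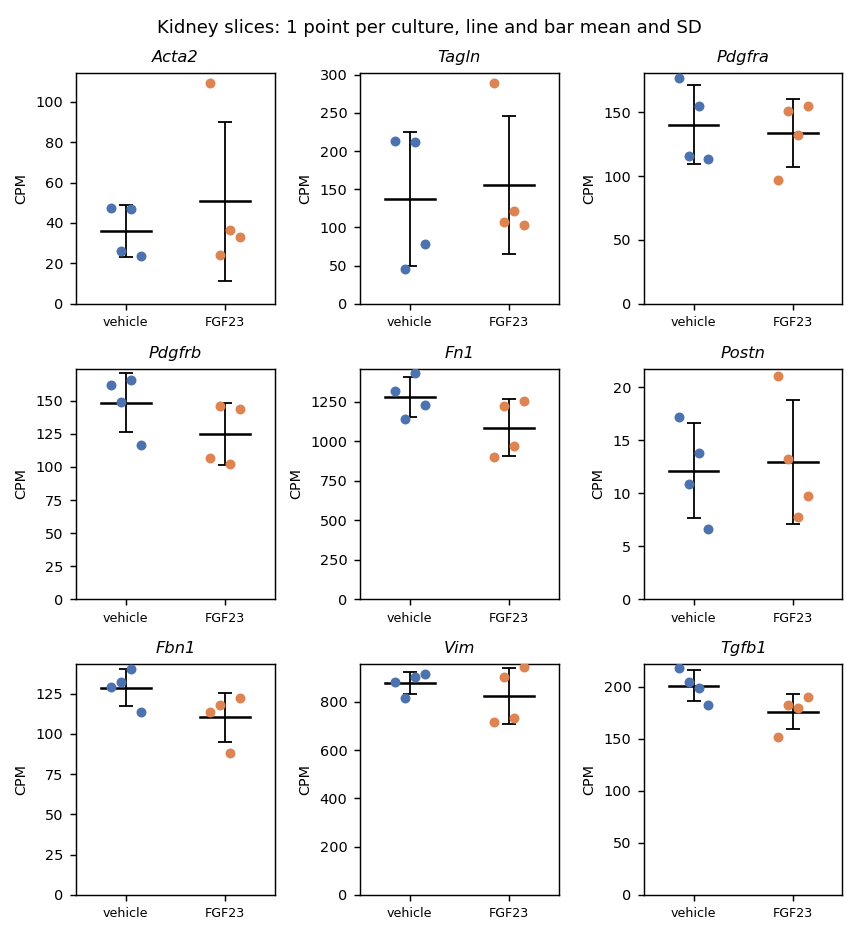
CPM of the 9 genes in each slice culture with vehicle (blue) or FGF23 (orange), with 1 panel per gene and a y axis from 0; points are cultures, horizontal lines are group means and bars are SD. The groups overlap in every panel, and 1 culture with FGF23 stands above the rest for Acta2 at 109 CPM and Tagln at 290 CPM.

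The wider pathway was described through 8 lists with 83 genes besides the 9. In anti-GBM disease with vehicle, 48 of the 82 genes tested were called higher and 9 lower, with a median log2 fold change of 0.64, where 19.4% of all genes were called higher and 20.4% lower. Of each list, up to 3 genes per direction with the smallest p are named. Of 19 genes for matrix and its crosslinking, 18 were called higher and 0 lower, with a median of 1.96. Lox, the lysyl oxidase that crosslinks collagen and elastin, averaged 3.19 ± 0.532 CPM (SD, n = 4) in healthy mice and rose to 20.6 ± 4.49 CPM (SD, n = 4). Timp1, an inhibitor of matrix metalloproteinases, averaged 0.525 ± 0.161 CPM (SD, n = 4) in healthy mice and rose to 16.4 ± 8.03 CPM (SD, n = 4). Mfap4, a microfibril-associated protein, rose by 2.80 on the log2 scale. Among 13 genes of fibroblast and pericyte identity 10 were called higher, among them Pdpn at a log2 fold change of 1.61, Thy1 at 1.74 and Gli1 at 1.56. Itga8, an integrin of mesangial cells and fibroblasts, was the 1 gene of that list called lower, at -0.82.

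Of 11 targets of TGF-beta, 8 were called higher and 0 lower. Tgfbi rose by 1.49 and Cdkn1a by 3.02 on the log2 scale. These targets also respond to other signals. Of 8 TGF-beta receptors and Smads, 1 was called higher, Acvrl1 at 0.63, and 1 lower, Smad2 at -0.25, with a median of -0.05. Of 12 genes for other ligands and for latency, 6 were called higher and 3 lower. Ltbp2, an elastic fibre protein of the family named for latent TGF-beta binding, was at 0.874 ± 0.467 CPM (SD, n = 4) in healthy and 15.4 ± 6.59 CPM (SD, n = 4) in anti-GBM mice. Tgfb3 and Ltbp3 rose by 1.61 and 0.61 on the log2 scale. The genes called lower were Itgb8 and Itgb6, integrin subunits that activate latent TGF-beta, at -0.72 and -0.40, and the protease Furin at -0.26.

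The inhibitors were mixed, with 3 of 10 called higher (Pmepa1, Dcn and Smad6) and 2 lower. The lists share some genes: Pmepa1 and Skil are also counted among the targets of TGF-beta, and Dcn among the identity genes. Bmp7, a kidney-protective antagonist of TGF-beta signalling, was at -0.53 and the ubiquitin ligase gene Smurf2 at -0.62 on the log2 scale. Of the 4 PDGF ligands, Pdgfb and Pdgfa were called higher, at 0.63 and 0.71, and Pdgfc lower, at -0.46. Of 11 other contractile genes tested, 4 were called higher and 1 lower. This list holds all the vascular smooth muscle markers used above, Des among them, so these descriptions share genes. The tropomyosin genes Tpm1 and Tpm2 rose by 1.05 and 1.05, Des rose by 0.65, and Synpo2 was at -0.57. Actg2, the smooth muscle gamma-actin gene, did not pass the filter on low counts.

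With FGF23 in both groups, 40 of the 82 genes were called higher in anti-GBM mice and 3 lower, where 14.5% of all genes were called higher and 12.7% lower. Called higher were 15 of 19 matrix genes, 9 of 11 TGF-beta targets and 6 of 13 identity genes. The matrix genes Loxl2, Sparc and Bgn had log2 fold changes of 2.14, 1.54 and 1.33. Among the targets, Tgfbi and Pmepa1 were at 1.85 and 0.86, and among the identity genes Pdpn, Thy1 and Cspg4 were at 1.12, 1.69 and 0.86. Among contractile genes 4 of 11 were called higher, with Tpm1, Tpm2 and Cald1 at 1.04, 0.84 and 0.60. Of the 12 genes for ligands and latency 5 were higher, with Ltbp2, Tgfb3 and Ltbp3 at 3.81, 1.32 and 0.64, and Furin was lower at -0.37. Acvrl1 was the 1 receptor gene called, at 0.62. Of the inhibitors Pmepa1 and Skil were higher, at 0.86 and 0.58, and Bmp7 lower at -0.51. Of the PDGF ligands Pdgfb was higher at 1.07 and Pdgfc lower at -0.59.

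In Adriamycin nephropathy 1 of 78 genes of these lists was called, with either treatment, and it was Cdkn1a. This is 1.28% of the lists' genes, where 0.331% of all genes were called with vehicle and 0.699% with FGF23. With FGF23 it was at 7.06 ± 1.12 CPM (SD, n = 4) in healthy and 14.8 ± 2.86 CPM (SD, n = 4) in Adriamycin mice. In the 5 comparisons of FGF23 with vehicle and the 2 interactions, edgeR called 0 genes of the lists.

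**Figure D5:**
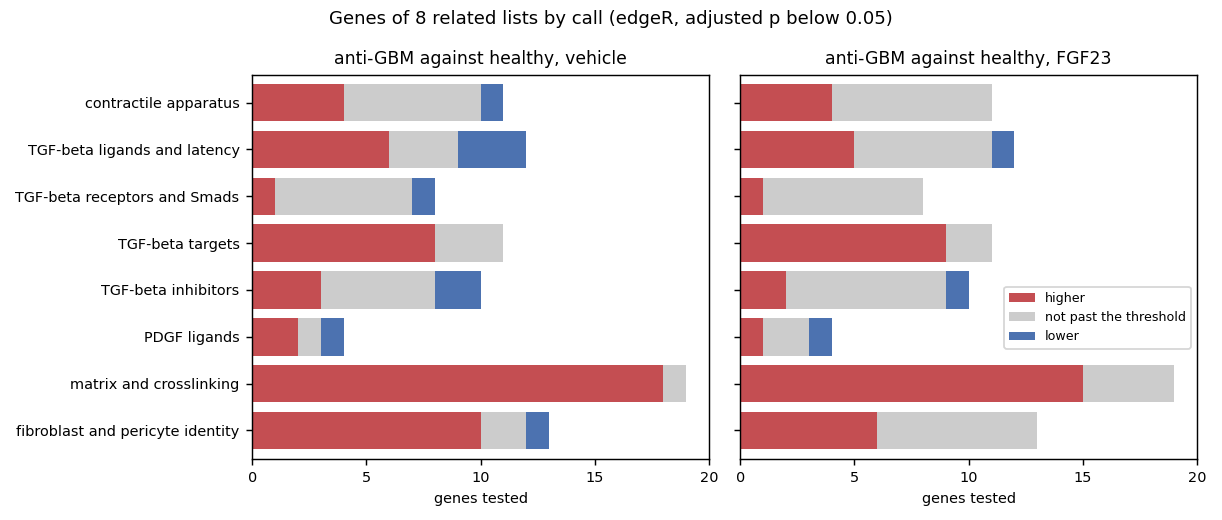
Genes of the 8 lists in anti-GBM against healthy mice given vehicle (left) or FGF23 (right); the x axis counts the genes tested, and bar sections are genes called higher (red), not past the threshold (grey) and called lower (blue). The matrix list has 18 of 19 genes higher on the left and 15 of 19 on the right, whereas 1 of 8 receptors and Smads is higher in each.

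The genes whose log2 CPM followed each member most closely were found over the 38 libraries, centred within each experiment, among 13974 genes tested in all 3 experiments. These correlations share libraries, depth and the difference between disease and health, and are descriptions. Acta2 was most like Eln (r = 0.87), Eva1b (r = 0.85) and Tpm2 (r = 0.85), and Tagln most like Mgp (r = 0.92), Mfap4 (r = 0.89) and Eln (r = 0.89). Elastin, encoded by Eln, was thus near the top for both contractile genes. Pdgfra was most like Colec12 (r = 0.93), Larp6 (r = 0.89) and Cped1 (r = 0.88), and Pdgfrb most like Emilin1 (r = 0.91), Col5a1 (r = 0.90) and Colec12 (r = 0.90). Fn1 and Fbn1 were most like fibrillar and other collagen genes, Fn1 like Col3a1 (r = 0.95), Col1a1 (r = 0.95) and Col1a2 (r = 0.94), and Fbn1 like Col5a1 (r = 0.96), Col6a2 (r = 0.95) and Col3a1 (r = 0.95). Postn was most like Mfap5 (r = 0.89), Gsn (r = 0.83) and Serpinf1 (r = 0.82). Vim and Tgfb1 shared their closest gene, Rcn1 (r = 0.98 and 0.95). Next came Arid5a (r = 0.96) and Tmsb10 (r = 0.96) for Vim, and Tmem173 (r = 0.94) and Plac8 (r = 0.94), both expressed in leukocytes, for Tgfb1.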

How the data were processed

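The authors aligned reads of stranded mRNA libraries to the mouse genome with STAR 2.7.9a and counted them per gene with featureCounts 1.5.1, on GRCm38 with an Ensembl annotation. Positions and exon lengths given here are those of GENCODE M21 on the same build, matched by gene ID. They deposited raw counts, with no normalization, in 1 table of 55487 genes. From these counts each experiment was fitted on its own with edgeR 4.0.16 in R 4.3.3 (TMM scaling, genes kept by filterByExpr with a minimum count of 10, quasi-likelihood test), with all its groups in 1 model. P values were adjusted by Benjamini and Hochberg over all genes tested in a comparison. CPM use the TMM factors, and likeness used log2 CPM with a prior count of 2. The fit was tested on simulated counts. Alternatives were RLE scaling, other filters, DESeq2 1.42.0, a robust fit, a fold limit, other adjustments, fewer groups, a replicate block and leaving out each library. All 9 genes are named, with up to 3 genes per list and direction and the 3 genes most like each member, except for 1 gene of the TGF-beta targets that is not reported here. The members and lists were chosen with earlier results of these data known. Dixon's rule was applied to groups of 4 on CPM and on log2 CPM, the first scale being added after the data were seen. Low counts limit the precision of Postn most.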

Additional observations from a re-analysis of the deposited data

Results flagged for a closer look

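In the slices with FGF23, culture 1 had 290 CPM of Tagln, against 104 to 122 CPM in the other 3 cultures. The gap to the nearest culture was 0.841 of the group's whole range on log2 CPM and 0.901 on CPM, above Dixon's 95% critical value of 0.829 for 4 samples on both scales. The same culture had 109 CPM of Acta2, against 24 to 36.6 CPM in the others, and healthy C57BL/6JRj mouse 3, given vehicle, had 10.3 CPM of Postn, against 1.39 to 2.38 CPM. These passed the critical value on CPM, with gaps of 0.852 and 0.890 of the range, but not on log2 CPM, with 0.722 and 0.740. Of 72 groups of 4 tested, 3 were thus flagged on CPM and 1 on log2 CPM, where chance alone flags about 1 in 20. Culture 1 also had the highest collecting duct and proximal tubule sums of the 8 cultures, and whether these bear on its Tagln and Acta2 levels was not tested.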

How the results depend on the processing

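Of the alternatives for single genes, 2078 left the direction and the call as they were, 77 turned the direction, each by leaving out 1 library, 14 gained and 18 lost a call. For the counts of calls, 403 stayed within 1.5 times and 83 did not. The causes were not tested, except that a fold limit and an adjustment over fewer or more comparisons change the count by construction. The number of the 9 genes called for FGF23 in anti-GBM mice went from 0 to 1 (Pdgfrb) with RLE scaling, without the filter on low counts, with at least 10 counts in every library, with the robust fit, with DESeq2 and with adjustment over the 5 comparisons together. That adjustment gave 2 in healthy C57BL/6JRj mice and 1 for the anti-GBM interaction, and DESeq2 gave 1 for Adriamycin disease with FGF23. For anti-GBM disease with vehicle, Postn lost its call with the robust fit (adjusted p = 0.0527 in edgeR's test), with the combined adjustment (0.0919) and with only the groups compared (0.0813). With FGF23, Pdgfra lost its call under the latter 2 settings.

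Of all genes, requiring an absolute log2 fold change above 1 left 1554 calls for anti-GBM disease with vehicle and 1444 with FGF23, 25 for FGF23 in anti-GBM mice, 31 for Adriamycin disease with either treatment and 1 for FGF23 in Adriamycin mice. Without the filter there were 60 for FGF23 in anti-GBM mice, 29 for the anti-GBM interaction, 98 for Adriamycin disease with vehicle, 21 for FGF23 in Adriamycin mice, 1 each for FGF23 in healthy BALB/c mice and the Adriamycin interaction, and 2 in slices. DESeq2 gave 161, 48 and 158 for the first 3 of these, 265 for Adriamycin disease with FGF23, 36 for FGF23 in Adriamycin mice, 16 in healthy BALB/c mice, 7 for the Adriamycin interaction and 3 in slices. The combined adjustment gave 298 for FGF23 in anti-GBM mice, 74 in healthy C57BL/6JRj mice, 200 for the anti-GBM interaction, 27 and 42 for Adriamycin disease with vehicle and FGF23, 1 in healthy BALB/c mice and 2 for the Adriamycin interaction. Fitting only the groups compared gave 12 for FGF23 in anti-GBM mice, 19 and 43 for Adriamycin disease with vehicle and FGF23 and 3 for FGF23 in Adriamycin mice. RLE scaling gave 3 for the anti-GBM interaction.

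Leaving out 1 library at a time gave 0 to 1 of the 9 genes for FGF23 in anti-GBM mice. Over all genes it gave 12 to 49 calls for FGF23 in anti-GBM mice, 0 to 1 in healthy C57BL/6JRj mice, 0 to 14 for the anti-GBM interaction, 10 to 100 and 21 to 119 for Adriamycin disease with vehicle and FGF23, 1 to 12 for FGF23 in Adriamycin mice, 0 to 4 in healthy BALB/c mice and 0 to 1 for the Adriamycin interaction. Log2 fold changes that crossed 0 in this way were those of FGF23 in anti-GBM mice for Acta2 (-0.17 to 0.033), Tagln (-0.078 to 0.023) and Vim (-0.21 to 0.11), in healthy C57BL/6JRj mice for Pdgfra (-0.079 to 0.58) and Pdgfrb (-0.0089 to 0.10), and the anti-GBM interaction of Pdgfra (-0.21 to 0.44). For Adriamycin disease with vehicle they were Pdgfra (-0.27 to 0.074), Pdgfrb (-0.15 to 0.10), Fbn1 (-0.22 to 0.059) and Vim (-0.17 to 0.019), and with FGF23 Acta2 (-0.56 to 0.0040) and Pdgfra (-0.23 to 0.18). For FGF23 in Adriamycin mice they were Acta2 (-0.047 to 0.16), Pdgfra (-0.28 to 0.11), Pdgfrb (-0.38 to 0.062), Fn1 (-0.017 to 0.53) and Fbn1 (-0.14 to 0.30), and in healthy BALB/c mice Acta2 (-0.14 to 0.45), Tagln (-0.059 to 0.45), Pdgfra (-0.33 to 0.11), Fn1 (-0.11 to 0.55) and Vim (-0.095 to 0.043). For the Adriamycin interaction they were Acta2 (-0.37 to 0.22), Tagln (-0.26 to 0.25), Pdgfra (-0.17 to 0.27), Fn1 (-0.33 to 0.35), Postn (-0.73 to 0.25), Vim (-0.18 to 0.0024) and Tgfb1 (-0.14 to 0.0046), and in slices Acta2 (-0.21 to 0.73), Tagln (-0.30 to 0.48), Pdgfra (-0.15 to 0.065) and Postn (-0.23 to 0.31).

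In the slices, the deviations from the group means of cultures with the same number correlated at 0.107, 0.105, -0.105 and 0.112. In 3 of the 4 pairs this was above the highest value with another number, a hint from the data that the numbers may pair the cultures, but culture 3 did not correlate best with its own number and pairing was not taken as given. With the replicate block, 0 of the 9 genes were called and the log2 fold changes of Acta2 and Tagln were 0.31 and 0.32. For the mouse experiments, the study's text describes random allocation to FGF23 or vehicle and a tissue fragment from each mouse. It names no pairs, and none were modelled. The count columns there could be tied to a group but not to a replicate number of the labels.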
